A study of Homo sapiens with 9 samples.

Results

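The genes described here are the nuclear-encoded subunits of the mitochondrial respiratory chain and ATP synthase, chosen by symbol from the deposited count table. Symbols beginning NDUFA, NDUFB, NDUFC, NDUFS or NDUFV with a number stood for complex I, SDHA to SDHD for complex II, UQCR for complex III, COX4 to COX8 followed by A, B or C for complex IV, and ATP5 for complex V. The rule took 84 of the 27730 symbols in the table. Of these, 36 belonged to complex I, 4 to complex II, 8 to complex III, 15 to complex IV and 15 to complex V. The remaining 6 were kept apart. NDUFA4 carries a complex I name but is now assigned to complex IV. UQCRHL and ATP5L2 are near-identical copies of UQCRH and ATP5L and can share their reads, ATP5J2-PTCD1 is a readthrough gene, and ATP5S and ATP5SL are not subunits of the enzyme. Subunits whose symbols do not match, such as COX4I1, NDUFAB1 and CYC1, are given further on as a separate list. Symbols are those of the deposited table, and 19 of the 84 are older synonyms (ATP5E is now ATP5F1E, ATP5G1 is ATP5MC1, ATP5H is ATP5PD).

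The cells were HUES9, an established line of human embryonic stem cells, sequenced as bulk RNA in 3 groups of 3 libraries. The first group was differentiated as embryoid bodies to day 13 with 10 µM AA147, a small molecule that the labels call an activator of ATF6, the endoplasmic reticulum stress sensor. The second was differentiated to day 13 with 10 µM RP22, labelled as the inactive analog of AA147, and the third was collected at day 1 with no agent. All 3 groups were HUES9 at passages 44 to 46, maintained on mitomycin-treated mouse embryonic fibroblasts, plated on Matrigel during differentiation, and described as 3 independent experiments. Cells that received only the solvent DMSO were not analysed here, all 9 libraries come from 1 cell line, and the count table does not show which reads came from the mouse feeders. The design asks what differentiation in the presence of the activator does to the transcriptome beyond what the inactive analog does.

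The respiratory chain passes electrons from NADH (complex I) and succinate (complex II) through ubiquinone to complex III, then through cytochrome c to complex IV, where oxygen is reduced. Complexes I, III and IV pump protons across the inner mitochondrial membrane, and complex V, the ATP synthase, uses their return to make ATP. Most subunits are encoded in the nucleus and imported, while a small core of each complex except complex II is encoded in mitochondrial DNA. Pluripotent stem cells are known for a high rate of glycolysis, and many lineages increase oxidative metabolism as they differentiate.

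Upstream sequences are shown first, because nuclear genes for the chain are known for sites of NRF1 and of GABPA, an ETS-family factor, near their start sites. Of the 78 subunits of complexes I to V, 65 had an entry in the RefSeq promoter table (GRCh38.p14), and the 250 bases before each start were searched on both strands. The NRF1 motif, GCGCA and GCGC with 1 base of any kind between them, was present in 14 of the 65 (21.5%), against 7.65% of 15843 promoters of protein-coding genes. The ETS motif CCGGAAG was present in 16 (24.6%), against 11.8% of all promoters. For the CCAAT box, CCAAT, the share was 33.9% among the subunits and 34.5% among all, and for the SP1 motif GGGCGG it was 53.9% and 56.0%. Letters of YY1, AAGATGGC, were found in 1 subunit promoter (1.54%, against 1.39% of all). Neither the ATF6 motif TGACGTGG nor the endoplasmic reticulum stress element, a CCAAT box followed by 9 bases of any kind and CCACG, was found in any of the 65, against 0.68% and 0.12% of all promoters. A match is a string of letters in this window and does not show that a factor binds there.

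Most of the 6 windows below belong to genes that the results turn on. NDUFB4 is shown as a subunit with 2 NRF1 strings, and its log2 fold change in RP22 against day 1 was -1.14. ATP5G1 and ATP5H had the largest falls between RP22 and day 1. SDHA and ATP5E did not pass the test between RP22 and day 1, and UQCRQ had the largest fold change between AA147 and RP22. Each is written 5′ to 3′ on the strand of the gene, and capitals mark matches to the NRF1, ETS and CCAAT strings on either strand (ATTGG is CCAAT read on the other strand).
ATP5G1, chr17:48892537-48892786, plus strand: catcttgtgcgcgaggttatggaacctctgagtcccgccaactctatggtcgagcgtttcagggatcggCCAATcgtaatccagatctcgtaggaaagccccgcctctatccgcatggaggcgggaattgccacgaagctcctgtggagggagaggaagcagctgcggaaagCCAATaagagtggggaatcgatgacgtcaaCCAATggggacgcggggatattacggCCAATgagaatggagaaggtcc
ATP5H, chr17:75046970-75047219, minus strand: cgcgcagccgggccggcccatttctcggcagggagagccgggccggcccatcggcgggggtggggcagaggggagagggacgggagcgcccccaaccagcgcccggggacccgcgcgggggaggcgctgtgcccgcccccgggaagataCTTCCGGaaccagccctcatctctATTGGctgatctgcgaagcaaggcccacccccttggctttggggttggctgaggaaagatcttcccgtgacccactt
NDUFB4, chr3:120596086-120596335, plus strand: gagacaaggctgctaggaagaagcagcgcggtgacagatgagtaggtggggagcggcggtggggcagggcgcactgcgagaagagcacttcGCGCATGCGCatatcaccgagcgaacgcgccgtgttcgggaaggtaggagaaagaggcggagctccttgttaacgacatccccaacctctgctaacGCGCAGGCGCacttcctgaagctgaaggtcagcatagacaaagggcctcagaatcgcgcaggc
SDHA, chr5:218070-218319, plus strand: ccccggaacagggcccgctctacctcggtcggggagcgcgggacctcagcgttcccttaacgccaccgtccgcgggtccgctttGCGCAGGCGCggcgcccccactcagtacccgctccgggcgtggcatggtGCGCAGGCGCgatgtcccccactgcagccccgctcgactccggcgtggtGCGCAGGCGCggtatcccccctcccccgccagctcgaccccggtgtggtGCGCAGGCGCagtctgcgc
UQCRQ, chr5:132866392-132866641, plus strand: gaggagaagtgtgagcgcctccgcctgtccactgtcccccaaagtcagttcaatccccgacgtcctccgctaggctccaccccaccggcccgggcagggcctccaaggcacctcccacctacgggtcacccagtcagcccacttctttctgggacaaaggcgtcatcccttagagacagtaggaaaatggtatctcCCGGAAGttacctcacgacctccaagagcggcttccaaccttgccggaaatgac
ATP5E, chr20:59032336-59032585, minus strand: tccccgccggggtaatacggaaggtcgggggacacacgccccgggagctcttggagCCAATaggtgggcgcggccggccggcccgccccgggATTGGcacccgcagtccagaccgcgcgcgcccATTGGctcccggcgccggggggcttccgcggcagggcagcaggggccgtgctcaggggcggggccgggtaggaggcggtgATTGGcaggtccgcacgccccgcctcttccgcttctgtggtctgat
The SDHA window holds 4 NRF1 strings, whose first bases lie 166, 117, 68 and 19 bases before the start. ATP5G1 and ATP5E each hold 4 CCAAT boxes. Coordinates are those of the RefSeq build and not of the authors' GRCh37.p13 alignment, to which they were not converted.

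Each library held between 9223027 and 10118258 reads, and 83 of the 84 members had a read in at least 1 library. In every group, replicate 1 lay further from replicates 2 and 3 than these lay from each other. The gap was widest with RP22, where the root mean square difference of log2(CPM + 1) over 18228 genes was 0.45 and 0.44 between replicate 1 and the others and 0.21 between replicates 2 and 3. With AA147 it was 0.38 and 0.37, against 0.26, and at day 1 it was 0.37 and 0.31, against 0.24. Counts of members are therefore given below with and without replicate 1. Markers of cell types differed between the groups. The 4 pluripotency markers (POU5F1, NANOG, LIN28A and DNMT3B) summed to 29.1 to 43.3 CPM (reads scaled to library size) in the AA147 libraries, 240.1 to 383.5 CPM in the RP22 libraries and 4393 to 4746 CPM at day 1, with NANOG at 0 in the AA147 group. The 5 fibroblast and matrix markers (COL1A1, COL1A2, COL3A1, FN1 and PDGFRB) summed to 56250 to 64790 CPM in the AA147 libraries, 10210 to 24190 CPM in the RP22 libraries and 302 to 423 CPM at day 1. For the 4 neuron markers the sums were 420.5 to 466 CPM with AA147, 740.0 to 916 CPM with RP22 and 155 to 190.5 CPM at day 1. With AA147 nearly all of that sum was the tubulin TUBB3, which averaged 439 CPM with AA147, 324 CPM with RP22 and 155 CPM at day 1. The other 3 were low with AA147. DCX averaged 1.20 CPM with AA147, 210.3 CPM with RP22 and 7.98 CPM at day 1, STMN2 averaged 3.18, 235 and 10.02 CPM, and ELAVL4 0.044, 79.97 and 0.84 CPM in those groups. The 4 smooth muscle markers summed to 3067 to 3478 CPM with AA147, 348 to 456 with RP22 and 93.5 to 128 at day 1. In those groups the 6 striated muscle and cardiomyocyte markers summed to 54.3 to 60.1, 44.65 to 70.45 and 15.0 to 17.5 CPM. Under TMM their median log2 fold change in AA147 against RP22 was -3.72. The 4 hepatic and yolk sac markers gave 0.76 to 3.15, 80.8 to 134 and 5.2 to 8.9 CPM. The 4 endothelial markers gave 5.38 to 21.8, 84.04 to 178.5 and 37.9 to 58 CPM. The part of these differences in the results below was not tested.

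Members of the chain took a smaller share of all reads at day 13 than at day 1, and the smallest share with AA147. Their reads made up 0.436, 0.446 and 0.445% of the AA147 libraries, 0.547, 0.562 and 0.546% of the RP22 libraries and 0.840, 0.919 and 0.946% of the day 1 libraries. The means were 0.442 ± 0.005% with AA147, 0.552 ± 0.009% with RP22 and 0.902 ± 0.055% at day 1 (SD, n = 3 each), and no library of one group reached the range of another. The same order held within each complex. Complex V took 0.147 to 0.153% of reads with AA147, 0.199 to 0.205% with RP22 and 0.328 to 0.361% at day 1, and complex I took 0.150 to 0.152%, 0.180 to 0.185% and 0.260 to 0.299% in those groups. For complex II the shares were 0.0183 to 0.0191% with AA147, 0.0220 to 0.0224% with RP22 and 0.0309 to 0.0354% at day 1. In bulk RNA, fewer cells with a given level and less RNA per cell cannot be told apart.

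**Figure D1:**
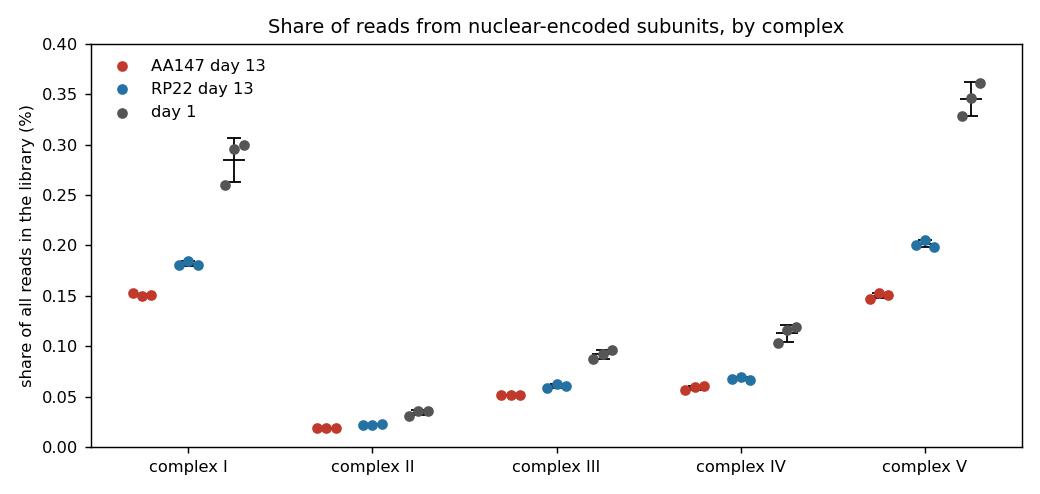
Share of all reads (%) taken by the subunits of each complex in each library (points), with the mean and SD of the 3 libraries of a group (bars). In all 5 complexes the AA147 libraries lie lowest, the RP22 libraries above them and the day 1 libraries highest, up to 0.361% for complex V.

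A share of reads depends on what the other genes do. TMM, which scales each library so that most genes do not move, gave the AA147 libraries factors of 0.786 to 0.820, against 1.11 to 1.18 for the RP22 libraries and 1.08 for those of day 1. The CPM values below are TMM-scaled over all 9 libraries, and log2 fold changes come from edgeR's quasi-likelihood test on the 6 libraries of each comparison, with Benjamini-Hochberg adjustment over all genes tested and a threshold of 0.05. Under TMM, all genes tested had a median log2 fold change of -0.03 for AA147 against RP22, 0.02 for RP22 against day 1 and -0.04 for AA147 against day 1. With library totals alone these medians were -0.49, 0.12 and -0.48, so directions between AA147 and either other group are relative to the rest of the transcriptome.

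Per gene length, the levels within a complex spanned a wide range in each group. On the deposited RPKM scale (reads scaled to gene length and library total, not TMM-scaled), ATP5B, the catalytic beta subunit, was the highest of complex V with a mean of 194 RPKM with AA147, 256 with RP22 and 536 at day 1. NDUFS5, a small membrane-arm subunit, was the highest of complex I with 223, 233 and 449 RPKM in those groups, and COX7C was the highest of complex IV with 141, 199 and 424 RPKM. Medians were taken over subunits with a mean of at least 1 RPKM in the group. In complex IV these were 10 of 15 subunits with AA147, 11 with RP22 and 11 at day 1, so the sets differ. Their median stood at 89.6 RPKM with AA147, 99.9 with RP22 and 157 at day 1. The median of the 4 subunits of complex II stood at 26.7, 31.6 and 48.8 RPKM. For 9 members, among them COX7A2L, ATP5G2 and NDUFA10, the ratio of reads to RPKM differed by over 5% between libraries, so that their RPKM and count fold changes differ.

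The first comparison set RP22 at day 13 against day 1, which is differentiation with the inactive analog. Nearly the whole chain was lower at day 13. Of 80 members tested, 0 rose and 72 fell, where 36.6% of all 14558 genes tested rose and 35.2% fell (edgeR). The count that rose was also 0 at an unadjusted p under 0.05, in edgeR, DESeq2 and limma-voom alike. The median member had a log2 fold change of -0.71, which was 0.73 below the median of all genes, and 16 members were at or below -1. With library totals alone, 0 rose and 71 fell, where 40% of all genes rose and 31.4% fell. Without RP22 replicate 1 the counts were 0 and 73, and without replicate 1 of both groups they were 0 and 76. The fall was present in each complex, with 34 of 36 in complex I (median -0.70), 3 of 4 in complex II (-0.93), 8 of 8 in complex III (-0.67), 10 of 11 tested in complex IV (-0.74) and 14 of 15 in complex V (-0.82). Within complex I, all 10 subunits of the NADH-oxidizing N module and all 5 of the ubiquinone-reducing Q module fell, as did 19 of 21 subunits assigned to the membrane arm.

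Among the 84 members, the largest falls between RP22 and day 1 were in complexes III, IV and V. The level of ATP5G1 was 12.8, 12.96 and 12.1 CPM with AA147, 13.7, 14.2 and 11.2 CPM with RP22 and 31.4, 42.3 and 39.8 CPM at day 1. ATP5G1 is one of 3 genes that encode the same subunit c of the membrane ring of complex V. Its RP22 libraries lay below every day 1 library, and its log2 fold change was -1.54 ± 0.15 (SE, edgeR adjusted p = 4.3e-05). Values of ATP5H were 54.9, 65.7 and 61.6 CPM with AA147, 49.98, 47.98 and 48.5 CPM with RP22 and 129, 138 and 147 CPM at day 1. This gene encodes subunit d of the stator stalk, and its level with RP22 was 0.353 of that at day 1 in the fit (edgeR adjusted p = 2.6e-06). With AA147, UQCRH stood at 44.6, 53.5 and 46.5 CPM, with RP22 at 42.5, 48.5 and 49.1 CPM and at day 1 at 110.0, 113 and 126 CPM. UQCRH, the hinge protein of complex III, shares near-identical sequence with UQCRHL, whose reads followed it closely (968 reads summed over the AA147 libraries, 1469 over the RP22 libraries and 3526 over the day 1 libraries, beside 1097, 1575 and 3608 for UQCRH). The split of reads between these copies is uncertain, and both fell, with log2 fold changes of -1.32 and -1.38. COX5A gave 74.5, 86.3 and 84.04 CPM in AA147 cells, 67.8, 68.7 and 69.9 CPM in RP22 cells and 150.3, 169 and 177 CPM in day 1 cells. COX5A is a matrix-side subunit of complex IV. None of its RP22 libraries reached a day 1 library, with a log2 fold change of -1.26 ± 0.08 (SE, edgeR adjusted p = 5.9e-06).

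Catalytic and core subunits fell by smaller or similar amounts. ATP5B had 414, 456 and 475 CPM in the AA147 libraries, 427, 407 and 393 CPM in the RP22 libraries and 863, 926 and 949 CPM at day 1. For this beta subunit the log2 fold change in RP22 against day 1 was -1.16, while the alpha subunit ATP5A1 had -0.72. The level of ATP5A1 was 383, 395 and 378 CPM with AA147, 456, 427 and 413 CPM with RP22 and 699, 698 and 729 CPM at day 1. Both genes fell, and for neither did the RP22 libraries overlap those of day 1. Values of NDUFV1 were 75.1, 67.7 and 76.7 CPM with AA147, 68.1, 68.01 and 66.1 CPM with RP22 and 91.5, 110.0 and 109.6 CPM at day 1. NDUFV1 carries the NADH-binding site of complex I, and its log2 fold change was -0.62. With AA147, NDUFS1 stood at 94.1, 92.7 and 98.03 CPM, with RP22 at 86.9, 72.6 and 71.2 CPM and at day 1 at 112, 136 and 126 CPM. NDUFS1, an iron-sulfur subunit of the N module, had -0.70, again with no overlap between RP22 and day 1. UQCRFS1 gave 56.5, 57.2 and 52.3 CPM in AA147 cells, 47.6, 49.98 and 46.2 CPM in RP22 cells and 83.4, 87.5 and 86.6 CPM in day 1 cells. It encodes the Rieske iron-sulfur protein of complex III, and its log2 fold change was -0.84, with no overlap between the groups.

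The 8 members tested that did not pass between RP22 and day 1 included 4 subunits with ample reads. SDHA had 75.3, 82.2 and 78.6 CPM in the AA147 libraries, 62.4, 69.7 and 66.98 CPM in the RP22 libraries and 61.9, 72.6 and 72.3 CPM at day 1. SDHA is the flavoprotein of complex II that oxidizes succinate, and its RP22 and day 1 libraries overlapped, with a log2 fold change of -0.06 and a 95% interval of -0.24 to 0.12. The other subunits of its complex passed. The level of SDHB was 43.01, 42.1 and 41.1 CPM with AA147, 32.7, 27.1 and 28.8 CPM with RP22 and 47.7, 73.1 and 64.1 CPM at day 1. SDHB, the iron-sulfur subunit, fell by 1.06, and the membrane anchors SDHC and SDHD fell by 0.79 and 1.11, all on the log2 scale. Values of ATP5E were 84.4, 99.99 and 90.97 CPM with AA147, 64.5, 58.3 and 50.3 CPM with RP22 and 49.2, 57.2 and 56.8 CPM at day 1. ATP5E encodes the epsilon subunit of the central stalk of complex V, and its RP22 and day 1 libraries also overlapped (0.08, 95% interval -0.14 to 0.30). NDUFA1 and NDUFA10, accessory subunits of complex I, had log2 fold changes of -0.20 and -0.19. The others were ATP5S, COX6B2, ATP5L2 and ATP5J2-PTCD1, whose means were at most 8.74 CPM in any group. NDUFA4 also fell, with -0.88.

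**Figure D2:**
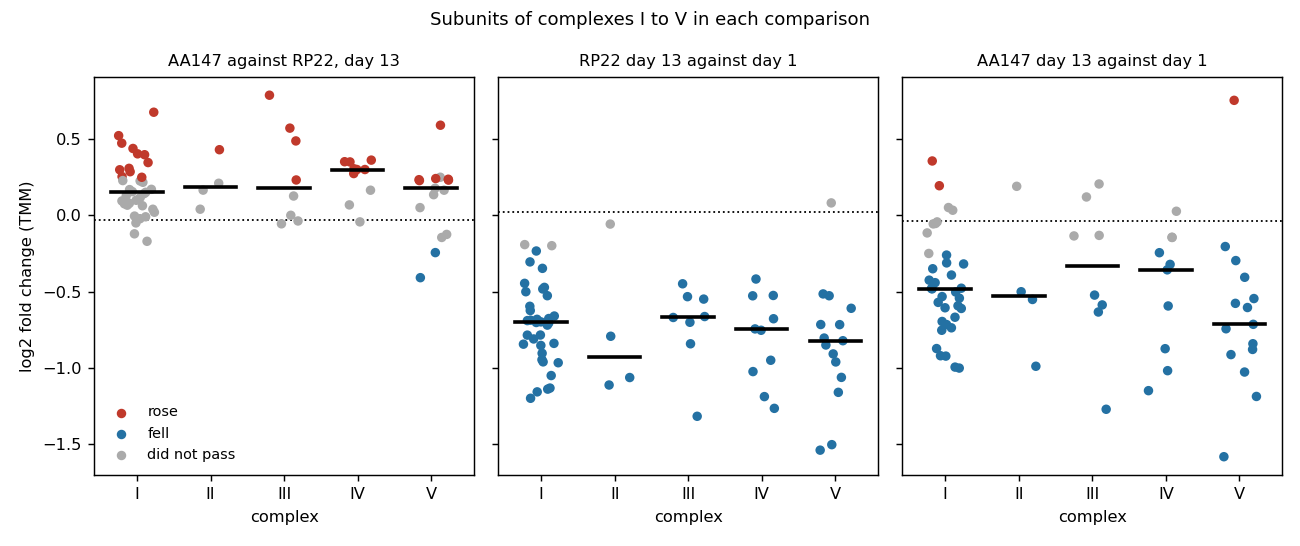
Log2 fold change (TMM-scaled, y axis) of each tested subunit by complex (x axis) in AA147 against RP22, RP22 against day 1 and AA147 against day 1, with the median of each complex as a bar and the median of all genes as a dotted line. COX6B2 is not drawn, red marks subunits that rose, blue those that fell and grey those that did not pass, and directions that involve AA147 are relative to TMM (with library totals alone, 1 member rose in AA147 against RP22).

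In AA147 at day 13 against day 1, most of the chain was also lower. Of 79 members tested, 3 rose and 60 fell, where 38.7% of 13761 genes tested rose and 40.4% fell. The median log2 fold change was -0.53, 0.49 below the median of all genes, and 9 members were at or below -1. Without AA147 replicate 1 the counts were 3 and 51, and without replicate 1 of both groups they were 3 and 62. With library totals alone, 1 rose and 75 fell, where 28.1% of all genes rose and 53.9% fell. By complex, 27 of 36 fell in complex I (median -0.48), 3 of 4 in complex II (-0.53), 4 of 8 in complex III (-0.33), 8 of 11 tested in complex IV (-0.36) and 14 of 15 in complex V (-0.71). Both comparisons with day 1 share the day 1 libraries, so their values are not independent of each other.

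ATP5G1 again stood lowest among members with at least 5 CPM, with a log2 fold change of -1.58 ± 0.14 (SE, edgeR adjusted p = 4.2e-06) for AA147 against day 1. UQCRHL and UQCRH followed with -1.42 and -1.27, then ATP5H with -1.19. With AA147, COX7C stood at 68.7, 75.6 and 71.8 CPM, with RP22 at 67.5, 71.02 and 72.00 CPM and at day 1 at 151, 159 and 168 CPM. COX7C, a small transmembrane subunit of complex IV, had -1.15 (edgeR adjusted p = 6.6e-07), and its AA147 and RP22 libraries overlapped while both lay below day 1. The gene that rose most was ATP5E, with 0.75 ± 0.10 (SE, edgeR adjusted p = 5.7e-05). It rose under library totals as well, with 0.31. NDUFA11 gave 59.7, 64.4 and 60.4 CPM in AA147 cells, 47.8, 43.98 and 45.4 CPM in RP22 cells and 51.6, 54.1 and 55.4 CPM in day 1 cells. NDUFA11, a membrane-arm subunit of complex I, had 0.19 (edgeR adjusted p = 0.046), which turned to -0.24 under library totals and did not pass when any of 5 of the 6 libraries was left out. NDUFA1 also passed, at 0.36 under TMM and -0.08 under library totals, but its groups overlapped. The count of rises dropped to 1 without AA147 replicate 2, AA147 replicate 3 or day 1 replicate 1.

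The comparison of AA147 with RP22 used matched dose and day, 10 µM and day 13, and was the one pair of compounds in the series. Relative to the other genes, the chain stood higher with AA147. Of 78 members tested, 30 rose and 2 fell, where 29.8% of 14293 genes tested rose and 32.2% fell. As shares of the members tested these were 38.5% and 2.56%. Under TMM the share that rose is near the background and is not a result about the chain, while the share that fell is well below it. The median log2 fold change was 0.17, 0.20 above the median of all genes, and 64 of the 78 lay above that median. With library totals alone the direction turned round, with 1 member that rose and 50 that fell. These were 1.28 and 64.1% of the members tested, against 13.3 and 59.7% of all genes. The share that fell was then no longer below that of all genes, while the share that rose was. The median was -0.29, which still lay 0.20 above the median of all genes, as it must since the scaling shifts all genes alike. Without RP22 replicate 1 the TMM counts were 35 and 2, and without replicate 1 of both groups they were 37 and 3. They dropped to 16 and 1 without AA147 replicate 3, to 16 and 2 without RP22 replicate 3 and to 19 and 1 without RP22 replicate 2.

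**Figure D3:**
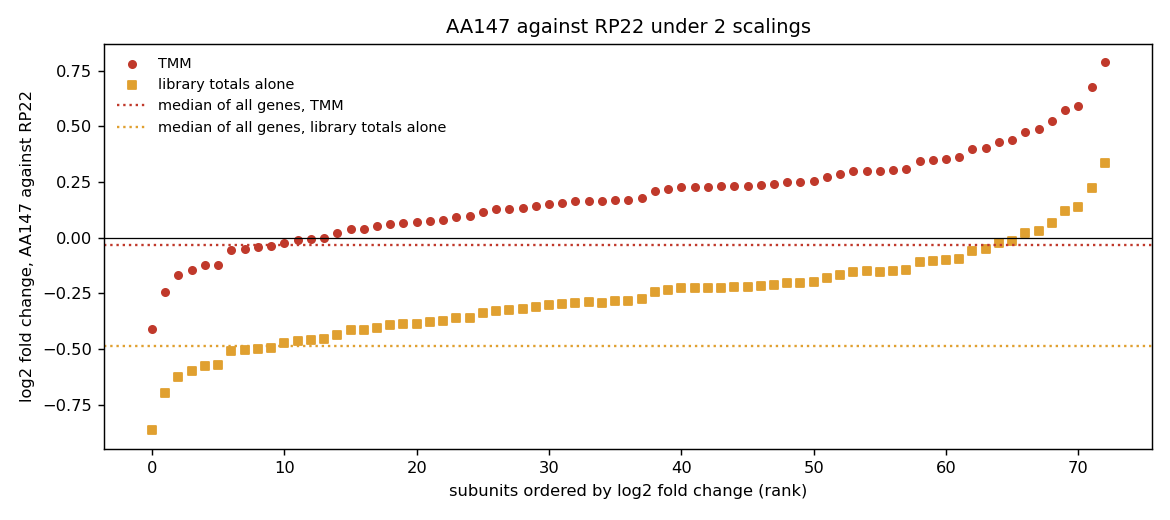
Log2 fold change of AA147 against RP22 (y axis) for the tested subunits of complexes I to V, ordered from lowest to highest (x axis, rank), under TMM (circles) and under library totals alone (squares), with the median of all genes under each (dotted lines). The 2 series run in parallel, most subunits lie above the dotted line of their own scaling, and the zero line falls at different ranks.

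Complex IV had the largest share of subunits that rose under TMM, 7 of the 10 tested, with a median of 0.30. COX7A2L is among those 7, and NDUFA4, which was kept apart from this count, had -0.13 and did not pass. The count was 12 of 36 in complex I (median 0.15), 1 of 4 in complex II (0.19), 4 of 8 in complex III (0.18) and 6 of 15 in complex V (0.18), where the 2 falls also lay, beside 29.8% of all genes that rose. These counts turn on single libraries. In complex IV 3 of 10 rose without AA147 replicate 3, a smaller share than the 3 of 8 in complex III, and 4 without RP22 replicate 3, in complex I 7 rose without either, and in complex V 2 rose without AA147 replicate 2 or 3 and 1 without RP22 replicate 2 or 3. Under library totals the median of each complex was below 0, and a difference between the complexes was not tested. Within complex I, 10 of 21 subunits assigned to the membrane arm rose under TMM, 2 of 10 of the N module and 0 of 5 of the Q module, and under library totals none of these 36 did. The membrane arm here holds every complex I member outside the N and Q lists, among them NDUFA9, which rose (0.40), so the counts depend on this assignment. With 1 library left out they ranged from 7 to 11 in the membrane arm, 0 to 4 in the N module and 0 to 1 in the Q module. A difference between the modules was not tested. The largest rises were in small subunits. UQCRQ had 48.4, 50.6 and 48.1 CPM in the AA147 libraries, 29.6, 26.1 and 24.9 CPM in the RP22 libraries and 37.5, 46.2 and 43.9 CPM at day 1. UQCRQ is a small subunit of complex III. Its AA147 libraries lay above every RP22 and day 1 library, and its log2 fold change against RP22 was 0.79 ± 0.09 (SE, edgeR adjusted p = 0.00018). It was the one member that rose under both scalings (0.33 under library totals). The level of NDUFB2 was 39.2, 46.6 and 43.5 CPM with AA147, 28.4, 25.5 and 22.7 CPM with RP22 and 37.7, 43.8 and 43.2 CPM at day 1. NDUFB2 is a membrane-arm subunit of complex I and had 0.68 ± 0.11 (SE, edgeR adjusted p = 0.00096). ATP5E had 0.59 (edgeR adjusted p = 0.0015). Values of UQCR11 were 57.7, 66.8 and 63.8 CPM with AA147, 45.9, 36.8 and 37.1 CPM with RP22 and 55.5, 56.5 and 60.99 CPM at day 1. UQCR11, the smallest subunit of complex III, had 0.57 on the log2 scale, with no overlap between AA147 and RP22. With AA147, NDUFB7 stood at 41.7, 37.4 and 42.2 CPM, with RP22 at 25.3, 28.6 and 26.01 CPM and at day 1 at 43.5, 46.1 and 41.8 CPM. NDUFB7, on the intermembrane-space side of the membrane arm, had 0.52. Under library totals NDUFB2, ATP5E, UQCR11 and NDUFB7 kept a positive sign, with 0.22, 0.14, 0.12 and 0.07, and did not pass.

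Among the core subunits, UQCRC1 passed. UQCRC1 gave 154, 151 and 163 CPM in AA147 cells, 102, 110.0 and 103 CPM in RP22 cells and 164, 168 and 180.2 CPM in day 1 cells. This core protein of complex III had 0.49 ± 0.07 (SE, edgeR adjusted p = 0.00048) under TMM and 0.03 under library totals. Its partner UQCRC2 did not pass, at -0.06 with a 95% interval of -0.18 to 0.07. SDHB rose by 0.43 under TMM and stood at -0.02 under library totals. For NDUFS1, SDHA, COX5A and UQCRFS1 the TMM values were 0.23, 0.17, 0.16 and 0.13, none past the test, and all were negative under library totals. The intervals of several members were narrow around 0 under TMM, with -0.09 to 0.19 for ATP5B, -0.11 to 0.19 for NDUFV1 and -0.12 to 0.12 for UQCRB, the ubiquinone-binding protein of complex III.

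Both members that fell in AA147 relative to RP22 belonged to complex V. Both also fell under library totals, which adds no support. That scaling moves all genes down in this comparison (median of all genes -0.49). ATP5G2 had 75.4, 75.03 and 80.4 CPM in the AA147 libraries, 88.5, 104 and 97.2 CPM in the RP22 libraries and 133, 133 and 147 CPM at day 1. ATP5G2, a second gene of subunit c, had -0.41 ± 0.08 (SE, edgeR adjusted p = 0.003), and every AA147 library lay below every RP22 library. ATP5A1, the alpha subunit, had -0.24 ± 0.07 (SE, edgeR adjusted p = 0.014). Without AA147 replicate 3 the adjusted p of ATP5A1 in the edgeR test was 0.068, and without RP22 replicate 2 it was 0.052. With all 9 libraries in one edgeR fit the adjusted p of ATP5A1 was 0.057.

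**Figure D4:**
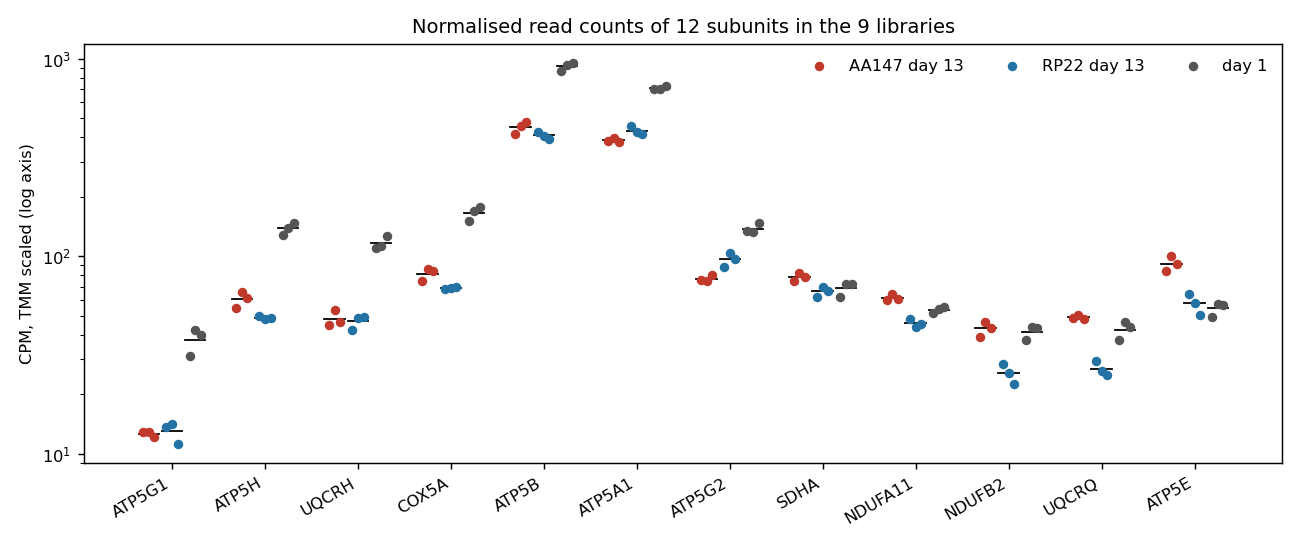
TMM-scaled CPM (log axis) of 12 subunits in each library, with AA147 (red), RP22 (blue) and day 1 (grey) side by side for each gene and a line at each group mean. ATP5G1, ATP5H, UQCRH and COX5A lie lower in both day 13 groups than at day 1, UQCRQ and NDUFB2 lie higher with AA147 than with RP22 (by 0.33 and 0.22 on the log2 scale under library totals too), and ATP5E lies highest with AA147, above RP22 by 0.14 under library totals.

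The genes of subunit c can be compared within a library, where scaling cancels. ATP5G1 supplied 5.83, 5.61 and 5.01% of the reads of ATP5G1, ATP5G2 and ATP5G3 together with AA147, 5.97, 6.04 and 5.06% with RP22 and 8.19, 10.5 and 9.15% at day 1. ATP5G2 supplied 34.2, 32.5 and 33.3% with AA147, 38.5, 44.3 and 43.9% with RP22 and 34.8, 32.9 and 33.9% at day 1. The level of ATP5G3 was 132, 143 and 149 CPM with AA147, 128, 117 and 113 CPM with RP22 and 219, 229 and 248 CPM at day 1. This gene made up the rest of the reads, with means of 61.2 ± 1.1% with AA147, 52.1 ± 3.1% with RP22 and 56.9 ± 0.2% at day 1 (SD, n = 3 each). The ATP5G2 share was thus higher in each RP22 library than in any AA147 or day 1 library, and the ATP5G1 share was higher in each day 1 library than in any day 13 library. An exact two-sided permutation test of 3 against 3 libraries cannot go below 0.1, and that is its value for these separations.

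In complex IV the broadly expressed isoforms carried nearly all the reads. Values of COX6A1 were 73.3, 73.9 and 74.3 CPM with AA147, 65.4, 51.7 and 53.2 CPM with RP22 and 72.04, 87.1 and 85.6 CPM at day 1. With AA147, COX6B1 stood at 93.8, 95.03 and 95.8 CPM, with RP22 at 74.4, 73.4 and 63.3 CPM and at day 1 at 96.95, 116 and 124 CPM. Their AA147 libraries lay above those of RP22 on this scale. COX8A gave 54.7, 53.7 and 63.5 CPM in AA147 cells, 46.1, 43.2 and 42.4 CPM in RP22 cells and 62.5, 78.2 and 79.5 CPM in day 1 cells. These 3 subunits passed under TMM between AA147 and RP22 (log2 fold changes of 0.30, 0.35 and 0.31) and were at -0.15, -0.10 and -0.15 under library totals. COX6A1 did not pass when any of 5 of the 6 libraries was left out (edgeR adjusted p of 0.053 to 0.079), nor did COX8A without AA147 replicate 3 (0.056) or RP22 replicate 3 (0.0503). All of them fell between RP22 and day 1, by 0.53, 0.68 and 0.74 on the log2 scale. COX7A2 had 68.7, 76.7 and 89.6 CPM in the AA147 libraries, 64.6, 58.4 and 51.5 CPM in the RP22 libraries and 88.03, 98.7 and 107 CPM at day 1. It had 0.35 between AA147 and RP22 under TMM and -0.10 under library totals. It did not pass with the replicate block (edgeR adjusted p = 0.058) or without replicate 2 or 3 of either group (0.058 to 0.097). The level of COX7A2L was 85.4, 109 and 99.7 CPM with AA147, 70.4, 74.6 and 71.2 CPM with RP22 and 89.5, 96.6 and 102 CPM at day 1. COX7A2L, a relative of COX7A2 known for a role in assembling supercomplexes, had 0.36 between AA147 and RP22 under TMM, -0.09 under library totals and -0.38 on log2(RPKM + 0.1).

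The tissue-restricted isoforms of complex IV were near or at 0. COX7A1, the heart and skeletal muscle isoform, had 16 reads over the 3 AA147 libraries, 6 over the RP22 libraries and 7 over the day 1 libraries. COX6A2, also of heart and skeletal muscle, had 0, 0 and 2 reads in those groups, COX8C 0, 5 and 2, and COX7B2 had 0 reads throughout. A count of 0 over a group allows up to 3 reads. The testis isoform COX6B2 had 1, 0 and 3 reads with AA147, 41, 4 and 10 reads with RP22 and 32, 16 and 19 reads at day 1. It fell in AA147 relative to day 1 with a log2 fold change of -3.52 ± 0.66 (SE, edgeR adjusted p = 0.00076), at under 5 CPM in every group, and was not tested between AA147 and RP22 because of low reads. Of its 55 RP22 reads, 41 came from replicate 1, and without that library its log2 fold change in RP22 against day 1 was -1.81 in place of -0.37.

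Read ratios between subunits of one complex also differed between groups. These pairs were chosen after the values were seen and are given as a description. Reads of ATP5E per 100 of ATP5B were 20.5 ± 1.4 with AA147, 14.1 ± 1.2 with RP22 and 5.95 ± 0.24 at day 1 (SD, n = 3 each). ATP5A1 per 100 of ATP5B, whose products alternate in the catalytic head, was 86.3 ± 6.4 with AA147, 106 ± 1 with RP22 and 77.7 ± 2.9 at day 1. In complex III, UQCRQ per 100 of UQCRC2 was 38.4 ± 2.1 with AA147, 21.4 ± 2.0 with RP22 and 23.1 ± 1.3 at day 1, and UQCRC1 per 100 of UQCRC2 was 122 ± 2, 83.7 ± 1.7 and 93.1 ± 3.8 in those groups. SDHA per 100 of SDHB was 187 ± 11 with AA147, 227 ± 33 with RP22 and 114 ± 15 at day 1. NDUFB2 per 100 of NDUFB10 was 82.9 ± 4.7 with AA147, 56.1 ± 3.8 with RP22 and 40.1 ± 1.4 at day 1.

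**Figure D5:**
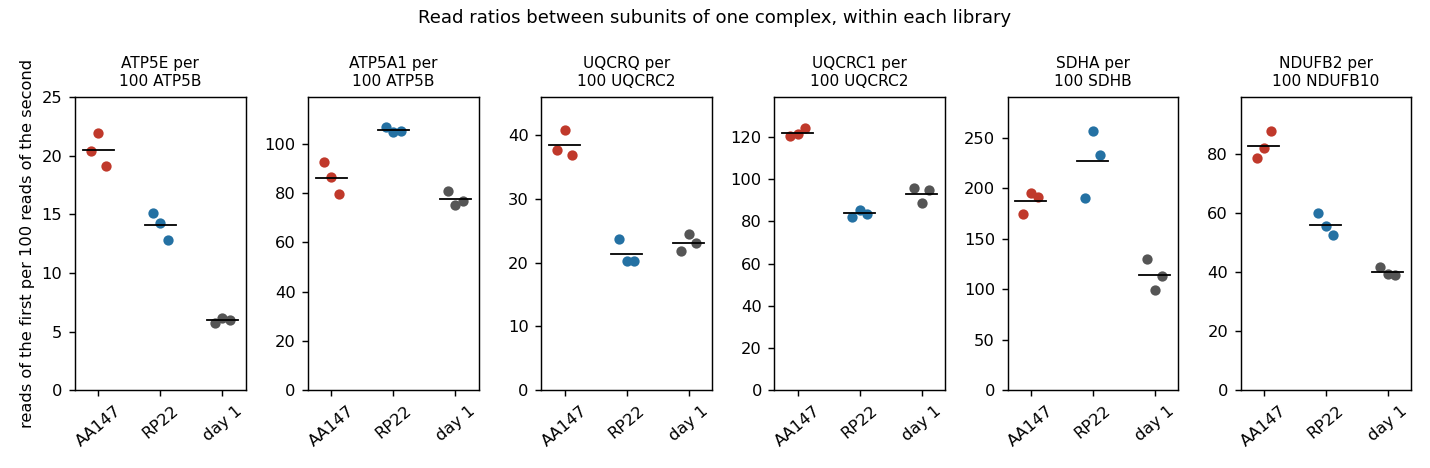
Reads of one subunit per 100 reads of another of the same complex, within each library (points) with the group mean (line), for AA147, RP22 and day 1. The ATP5E to ATP5B ratio is highest with AA147 (19.2 to 22.0) and lowest at day 1 (5.70 to 6.18), and UQCRC1 to UQCRC2 is above 120 with AA147 and below 96 in the other groups.

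Other genes of the pathway followed in part. The counts that follow stand beside 35.2% of all genes that fell in RP22 and 40.4% that fell in AA147 relative to day 1, and a difference from these shares was not tested. Of the subunits and carriers that the symbol rule leaves out, 7 were tested and all 7 fell between RP22 and day 1 (median -0.89), among them cytochrome c, CYCS (-1.42), and the acyl carrier subunit NDUFAB1 (-1.71). With AA147 against day 1, 5 of the 7 fell, and in AA147 against RP22 USMG5 and CYCS rose under TMM (0.57 and 0.20), where 6 of the 7 fell under library totals (59.7% of all genes). Complex I assembly factors fell in 8 of 13 in RP22 and in 8 of 13 in AA147 relative to day 1, and NDUFAF3 rose in AA147 relative to day 1 (0.89 under TMM), while under library totals it had 0.45 and did not pass. For assembly factors of complexes II to V, 14 of 19 fell in RP22 and 13 of 19 in AA147 relative to day 1, with the mitochondrial RNA-binding protein LRPPRC at -1.34 and -1.54 in those comparisons. Mitochondrial outer membrane and import genes had a lower median than the chain, with 15 of 16 that fell in RP22 (median -1.18) and 13 in AA147 (-1.15) relative to day 1, among them the chaperonin HSPD1 (-1.61 and -1.73).

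Regulators of mitochondrial biogenesis moved in both directions. Beside the counts of this and the next lists, 36.6% of all genes rose and 35.2% fell in RP22 against day 1, and 38.7% rose and 40.4% fell in AA147 against day 1. In RP22 against day 1, 9 of 14 fell and 2 rose, and in AA147 against day 1 the counts were also 9 and 2. TFAM, which packages mitochondrial DNA and takes part in its transcription, had -0.87 in RP22 and -1.23 in AA147 against day 1. In those comparisons the coactivator PPARGC1B had -2.15 and -3.21, and the fatty acid receptor PPARA rose in both. Between AA147 and RP22 under TMM, TFAM stood at -0.44, and 5 regulators rose and 7 fell, where 29.8% of all genes rose and 32.2% fell. Under library totals 0 rose and 9 fell (13.3 and 59.7% of all genes). The 5 rises and the 9 falls are near those shares and are not results about these regulators. Citric acid cycle enzymes fell in 11 of 14 in RP22 and 7 of 14 in AA147 relative to day 1, but IDH2 rose by 2.09 and 2.74 on the log2 scale. Between AA147 and RP22, 7 of the 14 rose under TMM (29.8% of all genes) and 8 fell under library totals. Those 8 falls are near the 59.7% of all genes, as the 7 falls in AA147 against day 1 are near 40.4%, and neither is a result about these enzymes. Glycolytic genes fell in 13 of 19 in RP22 and 11 of 19 in AA147 relative to day 1 under TMM while 4 and 5 rose. TPI1 had -1.62 and -1.56 in those comparisons, and the platelet phosphofructokinase PFKP and the glucose transporter SLC2A3 rose in AA147 against day 1 by 2.68 and 4.05. The 13 protein-coding genes of mitochondrial DNA were listed at 0 reads in all 9 libraries, so the nuclear subunits could not be set against their mitochondrial partners.

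Most subunit transcripts are short, and short genes in general were lower at day 13. By the length implied by reads and RPKM, all genes under 700 bases had a median log2 fold change of -0.62 in RP22 against day 1 (n = 194), and those of 3000 bases or more had 0.21. The medians of the subunits were -0.74 under 700 bases (23 subunits), -0.75 from 700 to 1500 bases (31), -0.69 from 1500 to 3000 bases (17) and -0.70 at 3000 bases or more (3). In AA147 against day 1, all genes under 700 bases had -0.42 and the subunits -0.54, and from 1500 to 3000 bases the values were -0.13 and -0.50. Between AA147 and RP22 under TMM, all genes under 700 bases had 0.17 and the subunits 0.23, and from 1500 to 3000 bases they had -0.02 and 0.11. The part of length in the results was not tested.

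Medians were alike for subunits with and without the promoter strings in RP22 against day 1. Subunits with an NRF1 string had a median log2 fold change of -0.72 (13 tested) and those without -0.70 (49 tested), and with and without the ETS string the medians were -0.71 and -0.70. Between AA147 and RP22 under TMM, the median was 0.29 with the ETS string (16 tested) and 0.14 without (45 tested), while with the NRF1 string it was 0.17 (13 tested) and without it 0.22 (48 tested). With the SP1 string the median was 0.23 (34 tested) and without it 0.10 (27 tested), so such a gap was not particular to the ETS string. With the CCAAT box it was 0.22 (19 tested) and without it 0.20 (42 tested). None of these differences was tested. In RP22 against day 1, the median was -0.68 with the CCAAT box (20 tested) and -0.74 without (42 tested). ATP5G1, NDUFS8 and ATP5E, each with 4 CCAAT boxes, had log2 fold changes of -1.54, -0.90 and 0.08 in RP22 against day 1.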

How the data were processed

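RNA-seq reads per gene were compared in 9 HUES9 libraries (3 with AA147, 3 with RP22, 3 at day 1). The authors deposited expected counts (reads per gene, not scaled) and RPKM (reads per length of the gene and size of the library) for each library. The sources used here name neither aligner nor counter, and the submitters' processing notes name GRCh37.p13 as the build. In the count table of 27772 rows, a floor value of 0.05 (41.43% of cells) was read as 0, fractions of shared reads (0.9142% of cells) were rounded, and 42 symbols on 2 rows were summed.

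Counts were fitted in R 4.3.3 with edgeR 4.0.16 (filterByExpr, TMM, robust quasi-likelihood test, group as the only term, the 6 libraries of each comparison, Benjamini-Hochberg over all genes tested, threshold 0.05). The fit was also run on simulated counts in which a small set of genes moved up or down at random. That run cannot test the scaling between groups as unlike as these. SE is the log2 fold change divided by the square root of F, and 95% intervals are normal intervals from that SE. P-values rest on the labels' statement that replicates are independent experiments. Complexes and lists are given by counts and medians with no test. Alternatives were library totals alone, DESeq2 size factors, DESeq2 1.42.0, limma-voom and limma 3.58.1 on log2(RPKM + 0.1) and log2(RPKM + 1), no count filter, all 9 libraries, a replicate block, and each library left out. Members named with their values were, in each comparison, up to 5 that rose and 5 that fell in the test, with groups apart and at least 5 CPM in the higher group, the isoform families of complexes IV and V, and 9 core subunits, with up to 4 genes of each other list by smallest p. Others were named after their values were seen. Members and lists were chosen with earlier results of these data known. Replicate numbers were not used to pair the samples in the main fit. Deviations of same-numbered libraries correlated at 0.19, 0.15 and 0.063 between AA147 and RP22 and at most 0.058 elsewhere. Libraries of different number correlated at -0.20 to 0.11 between AA147 and RP22, so these values cannot show whether the replicates were paired. Sequences came from RefSeq, in which 83 of 84 symbols were matched.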

Additional observations from a re-analysis of the deposited data

How the results depend on the processing

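The scaling decided the direction between AA147 and RP22. With library totals alone, limma on log2(RPKM + 0.1) and limma on log2(RPKM + 1), members that rose numbered 1, 1 and 1, those that fell 50, 52 and 52, and the member median was -0.29, -0.29 and -0.28. Of the 78 members tested, 61 had a positive log2 fold change under TMM and 7 with library totals alone. Only members named by the stated rule are listed here. Under those 3 settings, in that order, the log2 fold changes of AA147 against RP22 that changed sign among them were -0.40, -0.40 and -0.40 for ATP5B, -0.29, -0.29 and -0.28 for ATP5G3, -0.29, -0.29 and -0.29 for COX5A, -0.15, -0.15 and -0.14 for COX6A1, -0.10, -0.10 and -0.10 for COX6B1, -0.10, -0.11 and -0.10 for COX7A2, -0.095, -0.38 and -0.38 for COX7A2L, -0.15, -0.15 and -0.15 for COX8A, -0.23, -0.22 and -0.21 for NDUFS1, -0.41, -0.42 and -0.41 for NDUFV1, -0.29, -0.28 and -0.27 for SDHA, -0.022, -0.019 and -0.019 for SDHB, and -0.33, -0.33 and -0.32 for UQCRFS1. In AA147 against day 1, 10 members were positive under TMM and 2 with library totals alone. Among members named by the rule, those that changed sign there had -0.41, -0.41 and -0.41 for COX7A2L, -0.24, -0.25 and -0.25 for NDUFA11 and -0.25, -0.24 and -0.24 for SDHA. In that comparison members that rose numbered 1, 1 and 1, and the member median was -0.97, -0.96 and -0.94. In RP22 against day 1 SDHA was at 0.043, 0.032 and 0.031. With all 9 libraries in one fit the AA147 against RP22 median was 0.25 and 43 members rose. Without the count filter, complex medians minus that of all genes were 0.30, 0.33, 0.33, 0.45 and 0.32 for complexes I to V between AA147 and RP22, and -0.77 for complex III in RP22 against day 1. On log2(RPKM + 1) they were 0.11, 0.13 and 0.24 for complexes I, III and IV between AA147 and RP22, and -0.37 for complex III in AA147 against day 1. Leaving out 1 library gave 16 to 35 rises and 1 to 2 falls between AA147 and RP22 (37 and 3 without replicate 1 of both groups), and 1 to 3 rises in AA147 against day 1. In RP22 against day 1 the median then ranged from -0.85 to -0.68 and complex IV minus all genes from -0.94 to -0.69, with -0.85 and -0.94 without replicate 1 of both groups. COX6B2 in RP22 against day 1 ranged from -1.81 without RP22 replicate 1 to 0.10 without RP22 replicate 2, and COX7A2L in AA147 against day 1 to -0.0388 and -0.0227 without AA147 replicate 2 and day 1 replicate 1. The replicate block gave 22 rises and 2 falls between AA147 and RP22, 0 and 71 in RP22 against day 1, and 2 and 59 in AA147 against day 1. Apart from the scaling, the cause of these shifts was not tested. In AA147 against day 1, NDUFA11 did not pass with DESeq2 either. With 3 libraries per group, no exact permutation test can go below 0.1, and members with few reads, such as COX6A2 and COX8C, could not be compared.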
